A study of Homo sapiens with 3 samples.

Results

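The proteasome subunit genes were chosen by symbol: PSMA, PSMB, PSMC, PSMD, PSME, PSMF or PSMG followed by a number, without PSMB8 and PSMB9 and without pseudogenes. That gave 43 genes of the 15488 symbols in the count table. PSMA8, PSMD11 and PSMG3 were not analysed here. The cells were 22Rv1, an established human prostate cancer line, transfected with 20 μg of plasmid bearing MLPH transcript V1 or MLPH transcript V4 and collected after 48 h. MLPH encodes melanophilin, an adaptor between the small GTPase Rab27a and the motor myosin Va. Both groups used here received an MLPH plasmid, each is 1 library of poly(A) RNA, and the empty-vector group was not analysed here. No difference below therefore has a replicate check, no test across samples was possible, and each ratio describes a pair of libraries. The 95% intervals are exact binomial ones (Clopper-Pearson, conditional on both counts). They cover counting error alone, because each group is 1 library. Without molecular identifiers reads can be copies of 1 molecule, so even that error can be understated.

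The proteasome is the protease that breaks down proteins tagged with ubiquitin. Its 20S core is a barrel of stacked rings, in which outer alpha rings gate the entry and inner beta rings hold the proteolytic sites. A 19S regulatory particle on the end of the barrel recognises ubiquitin, removes it, and unfolds the substrate with a ring of ATPases. Other caps (the PSME activators) open the barrel without ATP, and dedicated chaperones build each part. Cells make the subunits in a fixed ratio, and the genes of core and particle are known to be induced together by the transcription factor NFE2L1 when proteasome activity drops.

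The library from cells given V1 had 9253399 counts in total and that from cells given V4 had 9609381. Below, "with V1" and "with V4" stand for these libraries. MLPH, the transfected gene, had 7219 and 7773 counts. Because both libraries received it, that value does not check which library got which plasmid. Of 10 markers of luminal prostate epithelium 7 were read, with a summed level of 796 CPM (counts per 1000000 counts of the library) with V1 and 769 CPM with V4. The 4 fibroblast markers read summed to 167 CPM with V1 and 5.0 CPM with V4, carried by COL1A2 (976 against 4 counts) and COL3A1 (526 against 0), while LUM had 33 against 44 counts and PDGFRB 6 against 0. The 4 leukocyte markers read summed to 10.1 CPM with V1 and 6.76 CPM with V4, mostly CD68 (86 against 59 counts), with LYZ at 7 against 6 and PTPRC and CD3E at 0 in both. The 3 endothelial markers read summed to 0.108 and 1.14 CPM, with VWF at 0 against 6 counts, KDR at 1 against 5 and CDH5 at 0 in both. The part of these markers in the proteasome values was not tested.

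Few proteasome genes differed by the size of a call. Genes were kept at a mean of at least 1 CPM, which left 40 of the 43. A kept gene was called when its log2 ratio (counts scaled by TMM, with a prior count of 2) was at least 0.32 in size, which is a ratio of 5 to 4, and its interval excluded 1. Of the 40, 2 were called higher in the V4 library, where the same rule called 11.5% of all 8840 kept genes. None was called lower, where it called 12.6% of all kept genes. At 1.5-fold the members called were 0 in each direction, against 5.5% (higher) and 7.1% (lower) of all kept genes. The 2 called genes were PSME4, a cap of the 20S core, and PSMD5, an assembly chaperone of the 19S particle. Summed over all 43 genes, proteasome counts made up 1.28% of all counts with V1 (interval 1.27 to 1.29) and 1.19% with V4 (interval 1.18 to 1.19), a scaled ratio of 0.949 (interval 0.941 to 0.957). In bulk RNA, fewer cells that express a gene and less of its RNA per cell cannot be told apart.

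Below that size, small offsets between these 2 libraries could still exceed counting error, because many members are abundant. Without replicates they cannot be told apart from variation between libraries. By an interval that excluded 1 at any fold, a rule chosen after the data were seen, 12 members were lower and 7 higher in the V4 library, against 21% and 19.9% of all kept genes. The split depended on the scaling: total counts gave 15 lower and 5 higher, removing a transcript length trend 6 lower and 11 higher, and removing a GC trend 18 lower and 2 higher. Among the 20 members with a mean of at least 100 CPM, 11 were lower and 3 higher, against 34.5% and 35.7% of the 1725 genes at that level. The median log2 ratio of the 40 kept members was -0.06, beside 0.00 over all kept genes, and it was 0.04 with the length trend removed.

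**Figure D1:**
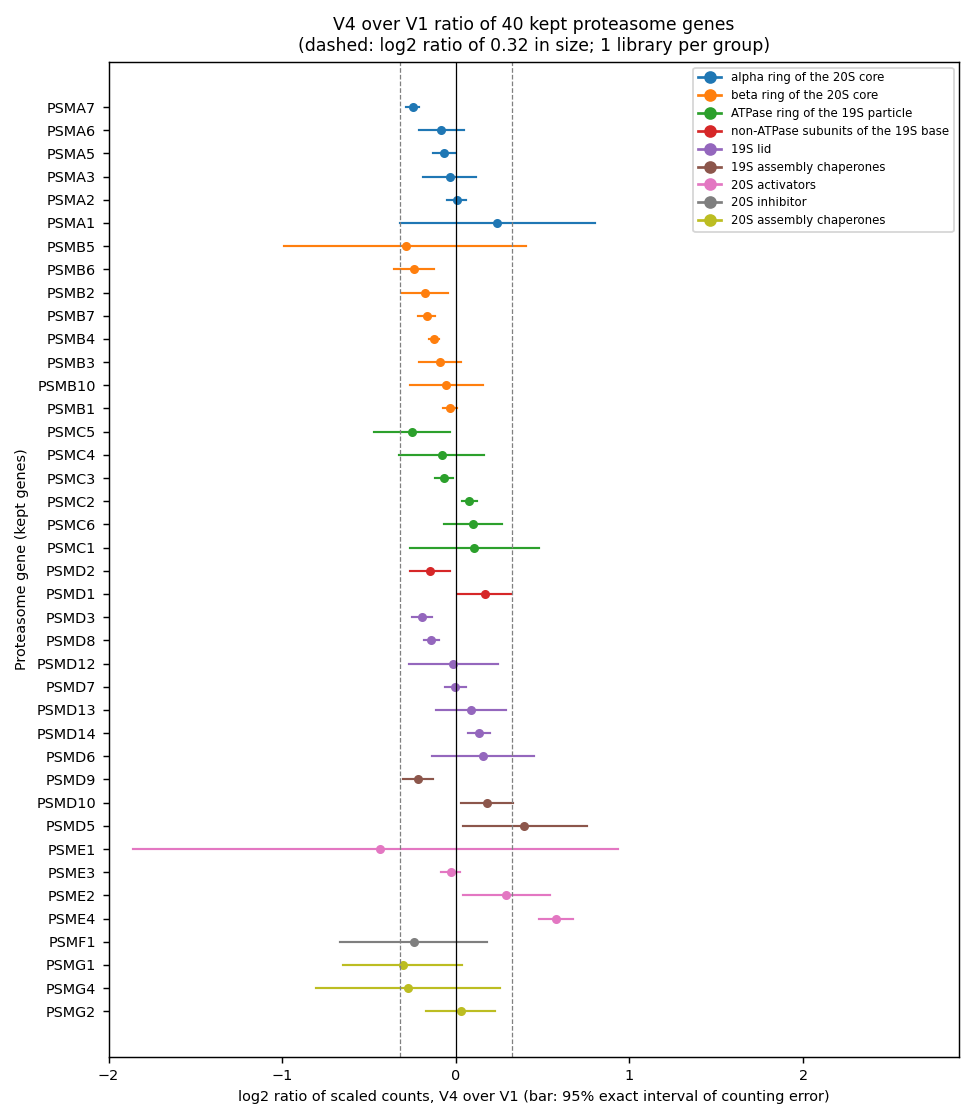
The log2 ratio of scaled counts (V4 over V1, horizontal axis) is drawn for each of the 40 kept proteasome genes, coloured by role, with bars for the 95% exact interval and dashed lines at a log2 ratio of 0.32 in size. PSME4 and PSMD5 lie beyond the right-hand line with an interval that excludes 1, and all 8 genes of the beta ring lie left of the line at 0 (4 of 8 with the length trend removed).

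In the alpha ring, 4 of 6 kept genes had a ratio below 1, and 2 of 6 with the length trend removed. PSMA7, its most abundant gene, had 13122 counts with V1 and 11203 with V4, a ratio of 0.842 (interval 0.821 to 0.864). Its log2 ratio of -0.25 was -0.088 with the length trend removed. PSMA5 had 3900 against 3769 counts, a ratio of 0.953 (interval 0.911 to 0.997). The other 4 kept genes had intervals that included 1: PSMA2 (5482 against 5580 counts), PSMA6 (1000 against 956), PSMA3 (712 against 704) and PSMA1 (51 against 61). The ring as a whole had a median log2 ratio of -0.05, which became 0.10 with the length trend removed. Its remaining member, PSMA4, had 0 counts in both libraries. If its reads were counted at all, that allows a level of up to 0.324 CPM with V1 and 0.312 CPM with V4. PSMA4 has 6 curated RefSeq transcripts, and how reads that match several transcripts were treated is not known here. The 0 is therefore not read as absence of its RNA.

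In the beta ring every kept gene had a ratio below 1 (8 of 8, against 50.4% of all kept genes), and 4 of the 8 intervals excluded 1. With the length trend removed 4 of the 8 were below 1. PSMB4, a structural subunit and the most abundant proteasome gene, had 18232 counts with V1 and 16927 with V4, a ratio of 0.916 (interval 0.897 to 0.935), and its log2 ratio turned to 0.036 with the length trend removed. Of the proteolytic subunits, PSMB7, with trypsin-like activity, had 7744 against 6986 counts, a ratio of 0.890 (interval 0.861 to 0.919), and its log2 ratio of -0.17 was -0.0066 with the length trend removed. PSMB6, with caspase-like activity, had 1291 against 1108 counts, a ratio of 0.847 (interval 0.781 to 0.918). PSMB5, the chymotrypsin-like subunit that bortezomib blocks, had only 41 against 34 counts, and its interval ran from 0.503 to 1.32.

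Of the beta subunits without a constitutive proteolytic site, PSMB2 had 1021 counts with V1 and 915 with V4, a ratio of 0.884 (interval 0.808 to 0.967). PSMB1 (10518 against 10427 counts) and PSMB3 (1150 against 1095) had intervals that included 1, and the log2 ratio of PSMB1 turned from -0.032 to 0.13 with the length trend removed. PSMB10, the inducible counterpart of PSMB7 in the immunoproteasome, had 383 against 374 counts, a ratio of 0.963 (interval 0.833 to 1.11). The other inducible subunits, which are not among the 43 genes, had few reads: PSMB9 had 43 against 8 counts, a ratio of 0.184 (interval 0.0745 to 0.395), and PSMB8 had 8 against 9. PSMB11, a subunit known from thymic epithelium, had 0 against 2 counts. The median log2 ratio of the ring was -0.15, and 0.015 with the length trend removed.

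The ATPase ring of the 19S particle, whose 6 members thread the substrate into the core, had 3 of 6 ratios below 1, 1 of 6 with the length trend removed and 4 of 6 with the GC trend removed. PSMC2 had 9096 counts with V1 and 9734 with V4, a ratio of 1.06 (interval 1.03 to 1.09), which turned to -0.087 on the log2 scale with the GC trend removed. PSMC3 had 6379 against 6176 counts, a ratio of 0.955 (interval 0.922 to 0.989), and its log2 ratio turned positive with either trend removed (0.044 for length, 0.026 for GC). PSMC5 had 375 against 319 counts, a ratio of 0.839 (interval 0.720 to 0.977). PSMC5 shares exon sequence on the opposite strand with FTSJ3, which had 4710 against 4910 counts, and the sources used here do not say whether the counting used strand. Other genes named in this text also share exon sequence with a further gene, and not every such pair is listed. The intervals of PSMC6 (584 against 634 counts), PSMC4 (284 against 272) and PSMC1 (120 against 131) included 1. PSMC1 has 13 pseudogenes named after it in GENCODE v29, PSMA6 4, PSMA2 and PSMD10 3 each, PSME2 2, and PSMA3, PSMB3, PSMB7, PSMD4, PSMD7, PSMD8 and PSMD12 1 each. The sources used here do not say where reads matching both were counted, which leaves these counts uncertain. The median log2 ratio of the ring was 0.01.

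The rest of the 19S base and the lid were split as well. PSMD2, the large scaffold subunit RPN1, had 1285 counts with V1 and 1173 with V4, a ratio of 0.900 (interval 0.831 to 0.975), while PSMD1, the related scaffold RPN2, had 648 against 737, a ratio of 1.12 (interval 1.01 to 1.249). PSMD4, the ubiquitin receptor RPN10, had 0 against 1 count. In the lid, PSMD3 had 5447 against 4825 counts, a ratio of 0.874 (interval 0.840 to 0.908), and its log2 ratio of -0.19 was -0.12 with the length trend and -0.073 with the GC trend removed. PSMD8 had 9736 against 8955, a ratio of 0.907 (interval 0.881 to 0.934), and its log2 ratio of -0.14 was -0.030 with the length trend and -0.065 with the GC trend removed. PSMD14, the metalloprotease that cuts ubiquitin chains off the substrate, leaned the other way at 3641 against 4047 counts, a ratio of 1.10 (interval 1.05 to 1.15), and its log2 ratio of 0.13 was 0.22 and 0.056 with these trends removed. The other 4 lid genes had intervals that included 1: PSMD7 (4296 against 4345 counts), PSMD13 (403 against 434), PSMD12 (258 against 259) and PSMD6 (183 against 207). The lid's median log2 ratio was 0.00, and 0.10 with the length trend removed.

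The clearest difference lay in a single activator gene, PSME4, and not in the activators as a group. Their median log2 ratio was 0.13, with 2 of the 4 ratios below 1. PSME4 encodes PA200, a cap best known from chromatin and spermatogenesis, and it had 1419 counts with V1 and 2142 with V4. The ratio was 1.49 (interval 1.39 to 1.59), the highest of the 40 kept members. At 7099 bases its longest coding transcript is also the longest among the proteasome genes. Its log2 ratio of 0.57 was 0.40 with the length trend removed and 0.45 with the GC trend removed. ACYP2, which shares exon sequence with PSME4 on the opposite strand, had 268 against 249 counts. PSME3, the nuclear activator PA28 gamma, had 5461 against 5422 counts. Of the interferon-inducible PA28 alpha and beta genes, PSME2 had 242 against 300 counts, a ratio of 1.22 (interval 1.03 to 1.45), and PSME1 had 12 against 9, with an interval from 0.275 to 1.91. PSME2 shares exon sequence on the opposite strand with RNF31 (1561 against 1473 counts). PSME2 was past the size of a call with the length trend (log2 ratio 0.42) or the GC trend (0.40) removed.

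Assembly factors varied among themselves. The median log2 ratio was 0.18 over the 3 chaperones of the 19S particle and -0.27 over the 3 kept chaperones of the 20S core. PSMD5, a chaperone that holds ATPase subunits before they join, had 117 counts with V1 and 156 with V4, a ratio of 1.32 (interval 1.03 to 1.69), and it was short of that size with the GC trend removed (log2 ratio 0.26). PSMD10, also named gankyrin and another chaperone of the ATPase ring, had 694 against 796 counts, a ratio of 1.13 (interval 1.02 to 1.254). PSMD9 had 2465 against 2149, a ratio of 0.860 (interval 0.811 to 0.911). PSMD9 shares exon sequence on the same strand with WDR66, which had 85 against 15 counts. Among the 20S chaperones, PSMG2 had 409 against 423 counts, PSMG1 161 against 132 and PSMG4 68 against 57, and all 3 intervals included 1. So did that of PSMF1, the 20S inhibitor PI31, at 105 against 90 counts. PSMG4 shares exon sequence on the opposite strand with SLC22A23 (1445 against 1570 counts) and TUBB2B (1662 against 1657).

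Transcript length and GC content moved with these ratios in all genes, so they are given beside the members. Kept genes with a transcript of at most 1630.5 bases (the median of kept members) had a median log2 ratio of -0.16, and longer ones 0.03. The 20 shorter proteasome genes had a median of -0.08 and the 20 longer ones -0.01. Likewise the 20 members with at most 48.9% GC had a median of 0.04 and the 20 above it -0.15, beside 0.11 and -0.12 for all kept genes split at the same value. Beta ring genes are mostly short, from 773 bases in PSMB3 to 1294 in PSMB5 among the kept ones, except PSMB2 at 4217. The part of length and of GC in the offsets was otherwise not tested.

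**Figure D2:**
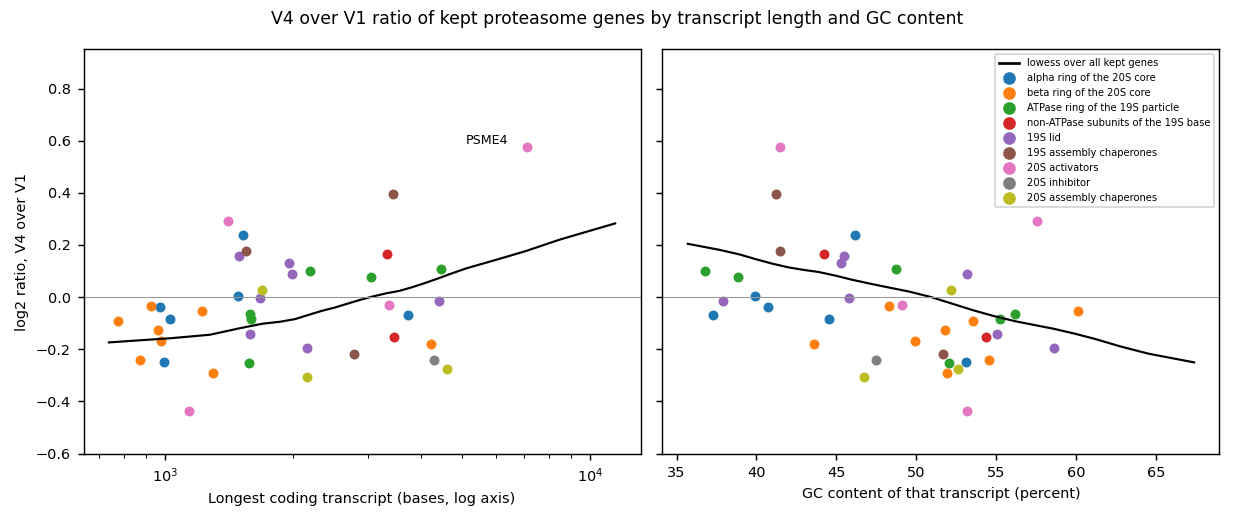
The log2 ratio (V4 over V1) of the 40 kept proteasome genes is plotted against the length of the longest coding transcript (left, log axis) and its GC content (right), coloured by role, with the lowess trend over all kept genes as a black line. Most short genes of the beta ring sit near the black line at the left edge, and PSME4 lies above it at 7099 bases.

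Levels as counted differed far more between members than between libraries. Per kilobase of the longest coding transcript, the highest level was that of PSMB4, at 2044 CPM per kb with V1 and 1827 with V4. In the same ring PSMB5 stood at 3.42 and 2.73 CPM per kb, so PSMB4 was 597-fold above it with V1 and 668-fold with V4. PSMA7 exceeded PSMA1 in the alpha ring by 394-fold and 282-fold, and PSMC3 exceeded PSMC1 in the ATPase ring by 149.7-fold and 133-fold. In the lid PSMD8 was 105-fold and 96.4-fold above PSMD12. In each of these pairs the higher gene has 1 curated RefSeq transcript and the lower one 2 or 3. Genes with several transcripts may be undercounted, so these folds compare counts and not amounts of RNA. The 4 genes with the most counts over both libraries held 43% of all proteasome counts with V1 and 42.3% with V4. When the members were ordered by level per kb, no gene changed its place by more than 5 ranks from one library to the other.

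The number of transcripts that RefSeq curates for a gene moved with its level. The 14 members with 1 curated transcript had a median of 334 CPM per kb (mean of both libraries), and the 29 with 2 or more a median of 22.3. All kept genes went the same way, at 10.1 CPM per kb for 3404 genes with 1 transcript and 4.02 for 4988 genes with 2 or more. The member medians include the 3 members that were not kept, while the other medians leave out genes below the filter. The sizes of the gaps are therefore not compared. PSMB4, PSMA7, PSMB1, PSMB7, PSMD8 and PSMC3, the members at the top of the order, all have 1. PSMA4, at 0 counts, has 6. The exceptions run both ways: PSMC2 has 2 transcripts and 327 CPM per kb, PSME3 has 5 and 171, while PSMB10 has 1 and 33.0. The sources used here do not say how reads that match several transcripts were treated, and the part of that step in the levels was not tested. Levels of genes with several transcripts are therefore not read as amounts of RNA here.

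**Figure D3:**
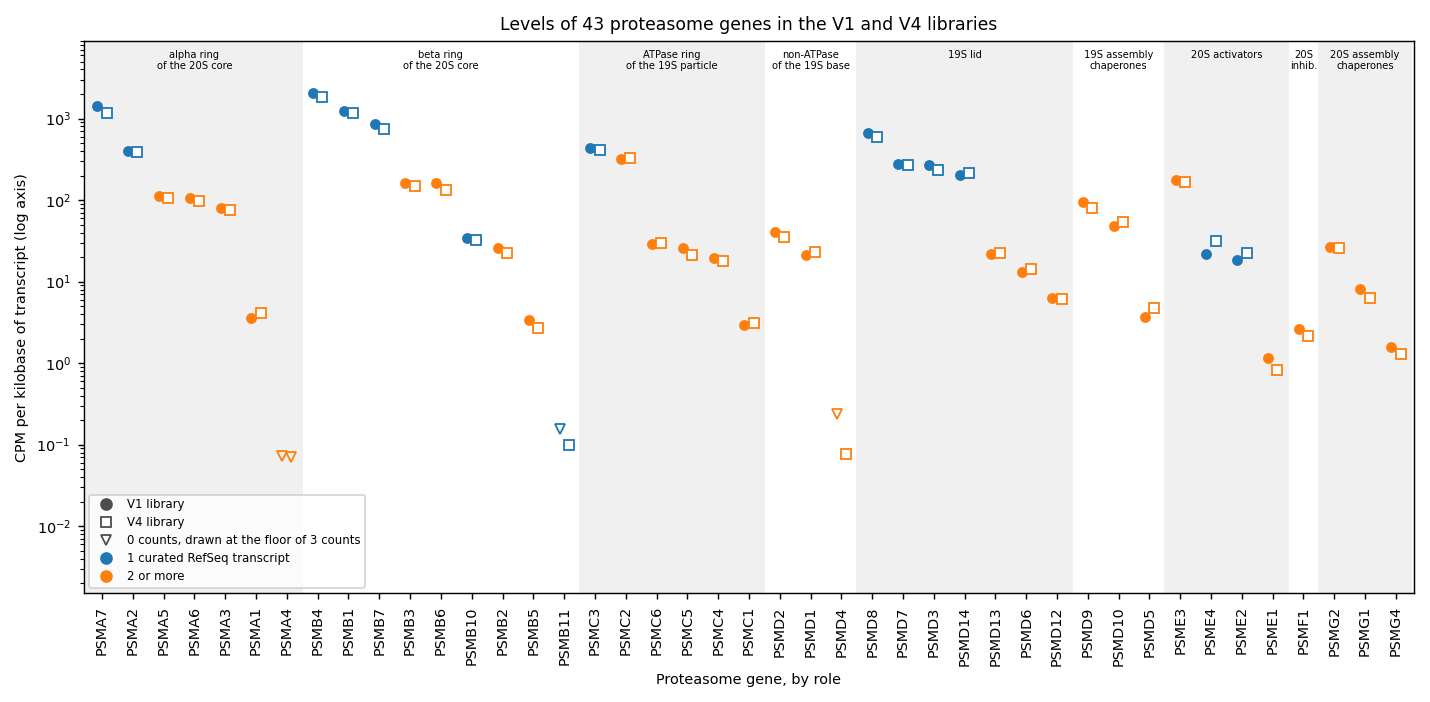
Levels in CPM per kilobase of transcript (log axis) are shown for all 43 proteasome genes in the V1 library (filled circles) and the V4 library (open squares), grouped by role, with triangles for 0 counts drawn at the floor of 3 counts. Both libraries give nearly the same level for each gene, and the genes with 1 curated RefSeq transcript (blue) top the alpha ring (PSMA7), the beta ring (PSMB4, 2044 CPM per kb in the V1 library), the ATPase ring (PSMC3) and the lid (PSMD8).

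Promoter sequence was read for the members because NFE2L1 and its relative NFE2L2, with small MAF proteins, bind the antioxidant response element, whose core is TGACNNNGC. RefSeq (GRCh38.p14) gave windows for 38 of the 43 genes, 46 windows in all, and the 250 bases before each start were searched on both strands. The element was in 12 of the 46 windows (26.1%), against 10.9% of all 35116 windows. The 12 genes were PSMA4, PSMB3, PSMC5, PSMD12, PSMD3, PSMD5, PSMD9, PSME1, PSME2, PSME4, PSMG1 and PSMG2. The 11 of them that were kept had a median log2 ratio (V4 over V1) of -0.09, and the 25 kept genes without it -0.04. The windows of both genes called higher in the V4 library and of PSMD3, a lid gene with a ratio below 1, all hold a match, and these 3 are shown with it in capitals. A match is a description of the letters, not a site. The windows are chr2:53970994-53971243 on the minus strand for PSME4, chr9:120842923-120843172 on the minus strand for PSMD5, and chr17:39980557-39980806 on the plus strand for PSMD3, each written 5′ to 3′ toward the gene. In PSME4 the match lies on the reverse strand, so the capitals show its reverse complement.
PSME4: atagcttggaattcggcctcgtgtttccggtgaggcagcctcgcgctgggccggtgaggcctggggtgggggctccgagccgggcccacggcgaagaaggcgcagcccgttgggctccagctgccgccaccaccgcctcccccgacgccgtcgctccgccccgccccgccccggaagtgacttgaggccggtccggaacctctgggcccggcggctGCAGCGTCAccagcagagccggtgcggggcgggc
PSMD5: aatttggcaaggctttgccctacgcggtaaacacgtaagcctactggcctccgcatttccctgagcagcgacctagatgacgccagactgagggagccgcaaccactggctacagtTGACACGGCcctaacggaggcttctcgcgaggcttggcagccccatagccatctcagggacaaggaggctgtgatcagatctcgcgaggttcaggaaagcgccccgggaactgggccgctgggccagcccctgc
PSMD3: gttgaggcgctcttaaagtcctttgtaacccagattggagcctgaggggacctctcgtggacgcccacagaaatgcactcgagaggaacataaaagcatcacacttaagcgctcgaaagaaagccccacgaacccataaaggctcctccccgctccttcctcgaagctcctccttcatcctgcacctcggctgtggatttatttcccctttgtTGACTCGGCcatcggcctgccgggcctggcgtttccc

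The first capital of the match lies 34 bases before the start in PSME4, 134 in PSMD5 and 37 in PSMD3. In all, 8 motifs were searched. GGGCGG, the GC box, was in 29 of 46 member windows (63%) against 42.6% of all windows, CCAAT in 39.1% against 32%, and CCGGAAG, an ETS motif, in 21.7% against 8.52%. TATAAA was in 8.7% against 10.7%, and TGACTCA, the AP-1 motif that can overlap TGACNNNGC, in 6.52% against 4.2%. CATGCGCA was in 4.35% against 1.81%, and AAACTACA in 2.17% against 1.05%. Some genes have several windows that overlap, so windows are not independent.

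Of 31 kept genes of proteins that act with the proteasome, in 5 lists, 8 were called higher in the V4 library and 1 lower, beside 11.5% and 12.6% of all kept genes. The longest coding transcripts of the 31 had a median of 4232 bases, where a length was known, and those of the 8 ran from 4118 to 10625 bases. With total counts 6 were called higher (DDI2, TXNL1, UBQLN1, UBXN7, UCHL5 and USP14). With the length trend removed 4 were (DDI2, UBQLN1, UCHL5 and USP14), and with the GC trend removed 3 (DDI2, UBQLN1 and UBXN7). MAFG was called lower each time.

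By list, of 9 kept genes of other bound and assembly proteins, 4 were called higher in the V4 library and 0 lower, beside these shares of 11.5% and 12.6%. The called genes were the deubiquitinase UCHL5 (256 against 372 counts, ratio 1.43, interval 1.22 to 1.69), the deubiquitinase USP14 (240 against 338, 1.39, interval 1.17 to 1.65), the thioredoxin-like TXNL1 (528 against 746, 1.39, interval 1.24 to 1.56) and KIAA0368, the adaptor ECM29 (46 against 69, 1.48, interval 1.00 to 2.20). The most abundant gene of the list, the core chaperone POMP, had 5821 against 5822 counts, a ratio of 0.986 (interval 0.951 to 1.02). Its log2 ratio was 0.11 with the length trend removed and -0.24 with the GC trend removed. UCHL5 shares exon sequence on the opposite strand with TROVE2 (1352 against 1823 counts) and USP14 with THOC1 (1277 against 1377). The list's median log2 ratio was -0.02, close to that of all kept genes.

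Among 5 kept shuttle factors, which bring ubiquitinated proteins to the proteasome, 2 were called higher in the V4 library and 0 lower. The same rule called 11.5% and 12.6% of all kept genes. DDI2, the protease that cleaves NFE2L1 into its active form, had 423 counts with V1 and 832 with V4, a ratio of 1.94 (interval 1.72 to 2.19). With the length trend removed its log2 ratio of 0.95 was 0.68. DDI2 has a transcript of 10625 bases that shares exon sequence on the same strand with RSC1A1, which had 727 against 1078 counts, and how reads of this pair were split is not known here. UBQLN1, a ubiquilin, had 565 against 793 counts, a ratio of 1.38 (interval 1.24 to 1.54).

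Of 5 kept regulators of proteasome genes, 1 was called lower, beside 12.6% of all kept genes. MAFG, a small MAF partner of NFE2L1 and NFE2L2, had 188 counts with V1 and 97 with V4, a ratio of 0.509 (interval 0.394 to 0.654). The related MAFK (204 against 176 counts), NFE2L2 itself (150 against 177) and FOXO4 (31 against 28) had intervals that included 1, as did STAT3 (110 against 106). MAFG shares exon sequence on the same strand with SIRT7 (29 against 23 counts). NFE2L2 shares it on the opposite strand with AGPS (924 against 1068). NFE2L1 was not analysed here. Of 2 kept genes of ubiquitin and its activation, 1 was called higher and 0 lower, beside 11.5% and 12.6% of all kept genes. It was the ubiquitin-activating enzyme UBA6 (151 against 193 counts, ratio 1.26, interval 1.01 to 1.57). UBA6 was not called with total counts, nor with the length or the GC trend removed. UBA1 had 12 against 15 counts.

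VCP, also named p97, is the ATPase that pulls ubiquitinated proteins out of complexes before degradation. Of 10 kept genes of VCP and its cofactors, 1 was called higher and 0 lower, beside 11.5% and 12.6% of all kept genes. Their median log2 ratio was 0.16. UBXN7, an adaptor between VCP and ubiquitin ligases, had 721 counts with V1 and 1066 with V4, a ratio of 1.46 (interval 1.33 to 1.61). Its log2 ratio of 0.54 was 0.28 with the length trend removed, short of the size of a call. FAF2 had 1796 against 2228 counts, a ratio of 1.22 (interval 1.15 to 1.30), and UBXN6 had 403 against 338, a ratio of 0.827 (interval 0.714 to 0.958). VCP itself had 14678 against 15325 counts, a ratio of 1.03 (interval 1.01 to 1.05) that turned to -0.028 on the log2 scale with the length trend removed.

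**Figure D4:**
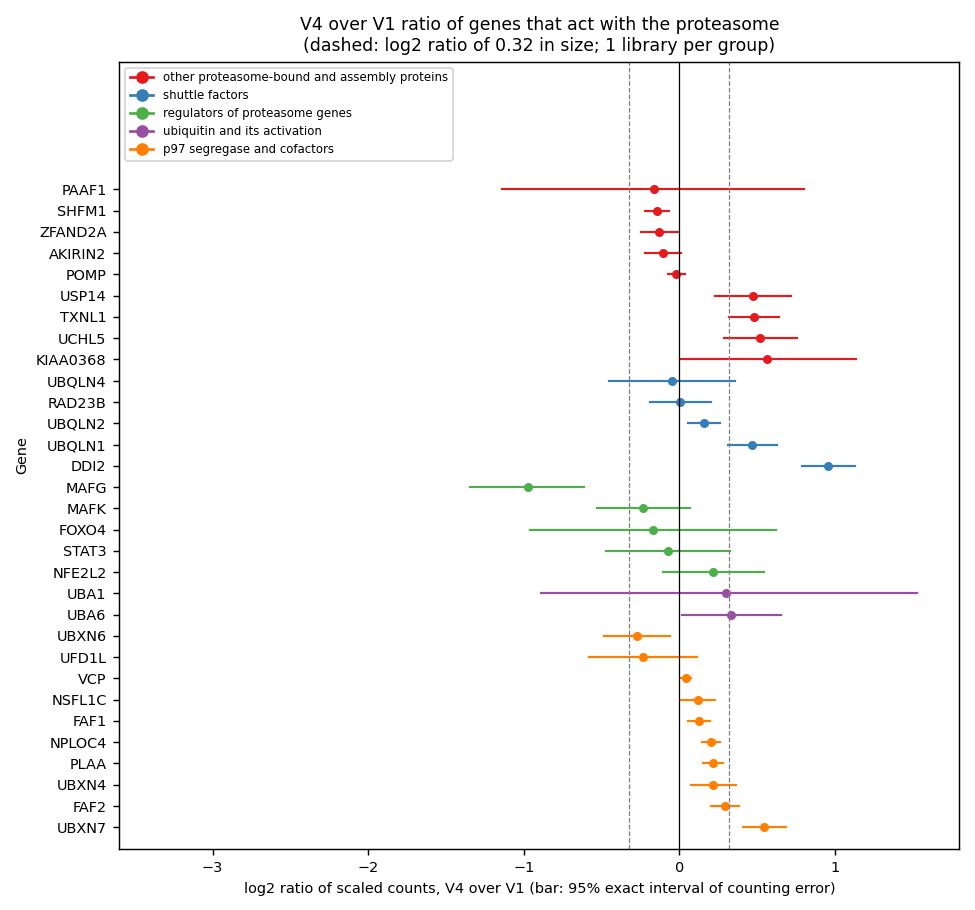
The log2 ratio of scaled counts (V4 over V1) is drawn for kept genes that act with the proteasome, coloured by list, with bars for the 95% exact interval and dashed lines at a log2 ratio of 0.32 in size. DDI2 lies farthest right at 1.94-fold and MAFG farthest left, while POMP sits near the line of no difference under this scaling.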

How the data were processed

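The authors deposited raw counts, whole numbers of reads for each gene symbol. Per the submitters' processing notes the build was hg19. What aligned and counted the reads, with which annotation and strand setting, and what became of reads matching several places was not stated in the sources read here. Poly(A) RNA was sequenced as 150 bp single-end reads, per the labels' protocols. The design text mentions a technical replicate, and the sources do not say how its reads entered the table. The count table has 15512 rows, and rows with the same symbol were added up. Columns were tied to samples by name. The 1 remaining column names no transfection and was not used, so the comparisons planned against the empty vector could not be made. The filter was a mean over both libraries of at least 1 CPM, and counts were scaled by TMM (edgeR 4.0.16, R 4.3.3) over the 2 libraries. Log2 ratios used a prior count of 2, printed ratios none. Intervals came from scipy 1.17.1. The procedure was tested on simulated data.

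Members, lists and the rule for named genes (the 6 highest and lowest ratios, all calls, the extremes of level per role, members at 0, and per list the most abundant gene and up to 3 with the largest ratios) were chosen with earlier results of these data known. The longest coding transcript in GENCODE v29 (GRCh38) gave each gene's length and GC content, found for 95.4% of kept genes, and transcript numbers from RefSeq, for 96.4%. Length and GC trends over kept genes used lowess from statsmodels 0.14.6 (fraction 0.3). DESeq2 1.42.0 gave alternative size factors. Figures were drawn with matplotlib 3.10.9. Results for 2 genes of the pathway lists are not reported here, and list counts leave them out.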

Additional observations from a re-analysis of the deposited data

How the results depend on the processing

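The 2 calls of higher members and 0 of lower stayed under median-of-ratios, upper-quartile and total-count scaling, other filters and prior counts of 0.5 and 8. Without the interval condition 1 member (PSME1) was lower, with the GC trend removed 1 (PSMG1), at 1.5-fold 0 were higher, and among members with 1 RefSeq transcript 1 (PSME4). At any fold with an interval that excluded 1, there were 7 higher and 12 lower. Median log2 ratios moved beyond counting error for the beta ring with total counts (-0.18) and for the non-ATPase base without a filter (0.17, where PSMD4 enters at 0 and 1 counts). With the length trend removed they were 0.10 (alpha ring), 0.015 (beta ring) and 0.10 (lid). With the GC trend removed they were -0.045 (ATPase ring) and -0.065 (lid). Keeping only members with 1 RefSeq transcript changed which genes entered a median, not their ratios. The medians were then -0.090 (beta ring, 4 genes), -0.067 (ATPase ring, PSMC3 alone), -0.072 (lid, 4 genes) and 0.43 (activators, 2 genes). Among genes named in the text and recomputed, directions turned for PSMB1 (0.13), PSMB4 (0.036), PSMC3 (0.044), POMP (0.11) and VCP (-0.028) with the length trend removed and for PSMC2 (-0.087) and PSMC3 (0.026) with the GC trend removed. The cause was not tested. No paired analysis was possible because each group has 1 sample, so none could be left out either. With 1 library per group, depth limits only the low members: at 41 counts the interval of PSMB5 spans 0.503 to 1.32.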

Other observations

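The lid of the 19S particle is related in sequence to 2 other complexes, the COP9 signalosome, which removes NEDD8 from cullin ligases, and the translation initiation factor eIF3. Neither list held a call at a log2 ratio of 0.32 in size (0 of 6 and 0 of 10 kept genes), beside 11.5% of all kept genes called higher and 12.6% called lower, and lists this short cannot be told apart from those shares. The median log2 ratio (V4 over V1) was 0.11 for the COP9 signalosome and 0.03 for eIF3, beside 0.00 for the lid. COPS5, the signalosome's catalytic subunit and a relative of PSMD14, had 5328 counts with V1 and 5886 with V4, a ratio of 1.09 (interval 1.05 to 1.13), where PSMD14 stood at 1.10. In eIF3 the genes lay on both sides of 1: EIF3E had 9402 against 10995 counts, a ratio of 1.15 (interval 1.12 to 1.19), and EIF3G had 10468 against 8863, a ratio of 0.835 (interval 0.812 to 0.859). EIF3A, the most abundant, had 18767 against 20726 counts, a ratio of 1.09 (interval 1.07 to 1.11).

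COPS3 (0 against 1 count) had almost no reads, as had PSMA4, PSMD4 and UBE4B, and EIF3L had 14 against 18. RefSeq lists 7 curated transcripts for COPS3, 6 for PSMA4, 2 for PSMD4, and 3 each for UBE4B and EIF3L. The part of transcript number in these counts was not tested.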
